A study of Mus musculus with 20 samples.

Results

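All 8 of 8 germline genes examined here had a listed accessible region over a transcription start site (TSS) in mouse embryonic stem (ES) cells, compared with 65.9% of all protein-coding genes. A listed peak was nearly universal at CpG-rich promoters, of which 99.1% had one within 1000 bp of a TSS. Such promoters belong to 7 of the 8 genes and to 10078 of 21938 protein-coding genes. The genes were Dazl, Ddx4, Mael, Stk31, Sycp1, Sycp3, Slc25a31 and Tex101, a set of germ cell genes taken by name out of 21938 protein-coding genes. Every listed ATAC-seq peak that overlapped one of them (GENCODE M21 annotation, mouse build GRCm38) or lay within 20000 bp was collected, which gave 27 of 102373 listed peaks. The genes were put together as genes that promoter methylation silences. DNA methylation and RNA were not measured here, so that name cannot be checked. Each gene had a listed peak over a TSS, so the list does not show these promoters as inaccessible. They are called germline genes below.

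ATAC-seq, in which a transposase cuts and tags open DNA, was performed in ZHBTc4 cells, an ES line in which a Tet-Off promoter drives Pou5f1 (encoding OCT4), so that doxycycline (dox) removes the endogenous protein. All cells carried the lentiviral reporter YPet-MD and a lentiviral SNAP-MD-OCT4 or SNAP-MD*-OCT4 under a PGK promoter, where MD is a mitotic degron from cyclin B1 and MD* its mutated form. The transduced cells were sorted for similar SNAP levels, and were cultured in serum with LIF, CHIR99021 and PD184352. The 20 libraries formed 10 groups of 2 replicates. Over both constructs, 16 libraries came from cells that spent 40 h in dox and were then separated by DNA content and YPet into early G1, late G1, S phase and SG2, and 4 libraries came from cells without dox that were not sorted.

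The list analysed gives the position of each peak after the peaks of the 16 dox libraries were merged. It has no height, count or value for a single library, so depth is unknown, no replicate error can be given, and constructs, phases and dox cannot be compared at these genes. A peak called in 1 library counts like a peak called in all of them, and a gene without a listed peak is not thereby shown to be closed. At 7 of 8 ES cell marker genes a promoter peak (within 1000 bp of a TSS) was listed, among them Pou5f1, Sox2 and Klf4. Of all protein-coding genes 70.4% had one, so this count does not identify the cell type. The marker without one was Nanog, whose nearest listed peak lay 1402 bp from a TSS.

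Germline genes encode proteins for the development of germ cells, for meiosis and for the control of transposons, and most are not used in other cell types. Many have CpG-rich promoters that become methylated in the early embryo, which keeps them off afterwards. In ES cells a variant Polycomb complex, PRC1.6, is also known to hold many of them down. Its MGA and MAX subunits recognise the E-box CACGTG and its E2F6 subunit recognises the core TCCCGC.

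E-boxes were found at most of these promoters, and the sites nearest to the principal TSS (the TSS of the principal transcript in the annotation) are shown for the 7 genes that had one in the promoter peak. Each site is 30 bases of the GRCm38 reference, read 5′ to 3′ on the strand of the gene, with the E-box in capitals.
Ddx4, chr13:112652322-112652351, minus strand: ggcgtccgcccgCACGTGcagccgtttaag
Sycp1, chr3:102936177-102936206, minus strand: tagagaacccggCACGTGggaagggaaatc
Sycp3, chr10:88459511-88459540, plus strand: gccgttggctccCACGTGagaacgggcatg
Sycp3, chr10:88459532-88459561, plus strand: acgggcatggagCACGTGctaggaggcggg
Mael, chr1:166238950-166238979, minus strand: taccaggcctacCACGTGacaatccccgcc
Stk31, chr6:49395472-49395501, plus strand: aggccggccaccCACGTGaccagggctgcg
Slc25a31, chr3:40708766-40708795, plus strand: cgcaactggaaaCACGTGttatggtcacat
Dazl, chr17:50293093-50293122, minus strand: cccggggtgggcCACGTGcacggcctgggc
Dazl, chr17:50293073-50293102, minus strand: cggcctgggcgtCACGTGacggctctttcc
Outside the capitals the sites differed from each other. Sycp3 and Dazl had a pair of sites so close together that the printed stretches overlap.

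CpG content set the promoters apart from most other listed peaks, and 4 promoters are printed to show its range. Each is the RefSeq window from 250 bases before to 50 bases after the start of the gene (GRCm38.p6, strand of the gene), with every CpG, the dinucleotide that DNA methylation acts on, in capitals. Ddx4 had the most CpGs of the 8 genes in this window and Sycp3 the fewest, while Dazl and Tex101 were the genes without an E-box there.
Ddx4, chr13:112652261-112652560, minus strand: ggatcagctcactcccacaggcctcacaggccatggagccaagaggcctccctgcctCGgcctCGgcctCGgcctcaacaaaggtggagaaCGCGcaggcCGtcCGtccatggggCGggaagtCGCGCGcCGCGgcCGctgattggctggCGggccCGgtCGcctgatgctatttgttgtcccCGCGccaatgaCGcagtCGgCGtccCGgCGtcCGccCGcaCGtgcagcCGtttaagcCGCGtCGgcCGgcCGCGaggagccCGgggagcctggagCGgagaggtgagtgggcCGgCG
Dazl, chr17:50293571-50293870, minus strand: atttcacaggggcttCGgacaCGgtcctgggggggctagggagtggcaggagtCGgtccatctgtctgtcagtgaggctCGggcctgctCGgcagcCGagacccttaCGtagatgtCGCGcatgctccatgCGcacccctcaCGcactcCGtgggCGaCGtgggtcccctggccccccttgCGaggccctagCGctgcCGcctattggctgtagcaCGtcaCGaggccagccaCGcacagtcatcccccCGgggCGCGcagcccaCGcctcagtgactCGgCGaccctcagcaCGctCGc
Sycp3, chr10:88459337-88459636, plus strand: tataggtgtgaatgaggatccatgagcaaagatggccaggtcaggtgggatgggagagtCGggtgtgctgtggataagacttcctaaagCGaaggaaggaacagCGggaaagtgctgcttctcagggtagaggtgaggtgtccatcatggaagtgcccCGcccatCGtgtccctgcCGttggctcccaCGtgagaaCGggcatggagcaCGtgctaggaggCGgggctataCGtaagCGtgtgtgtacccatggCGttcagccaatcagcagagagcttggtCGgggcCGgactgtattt
Tex101, chr7:24672001-24672300, minus strand: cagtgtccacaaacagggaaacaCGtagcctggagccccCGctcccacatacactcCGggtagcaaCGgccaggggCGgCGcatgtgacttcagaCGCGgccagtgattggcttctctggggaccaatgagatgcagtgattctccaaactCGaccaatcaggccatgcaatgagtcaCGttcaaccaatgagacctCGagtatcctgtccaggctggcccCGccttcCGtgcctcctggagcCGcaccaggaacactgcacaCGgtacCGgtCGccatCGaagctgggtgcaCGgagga
The windows held 38 CpGs at Ddx4, 28 at Dazl, 19 at Tex101 and 15 at Sycp3. All 300 bases lay inside the listed peak at Ddx4 and Sycp3, against 231 bases at Dazl and 219 at Tex101.

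The promoter peaks are described first. At each of the 8 genes exactly 1 peak lay within 1000 bp of a TSS of the gene, and it spanned the principal TSS. Over all protein-coding genes, 70.4% had a peak no further than 1000 bp from a TSS, 65.9% had one over a TSS and 66.8% had one within 1000 bp of the principal TSS. Most germline genes were of a promoter class in which a listed peak was nearly universal. The ratio of observed to expected CpG within 500 bp of the annotated 5′ end was 0.6 or more at 7 of the 8 genes. The same held for 10078 of 21938 protein-coding genes. Its median was 0.726 at the germline genes and 0.552 over all protein-coding genes. Of the 10078 protein-coding genes at or above the limit, 99.1% had a promoter peak. A peak at each of these 7 genes is thus near the background for promoters of their CpG content.

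**Figure D1:**
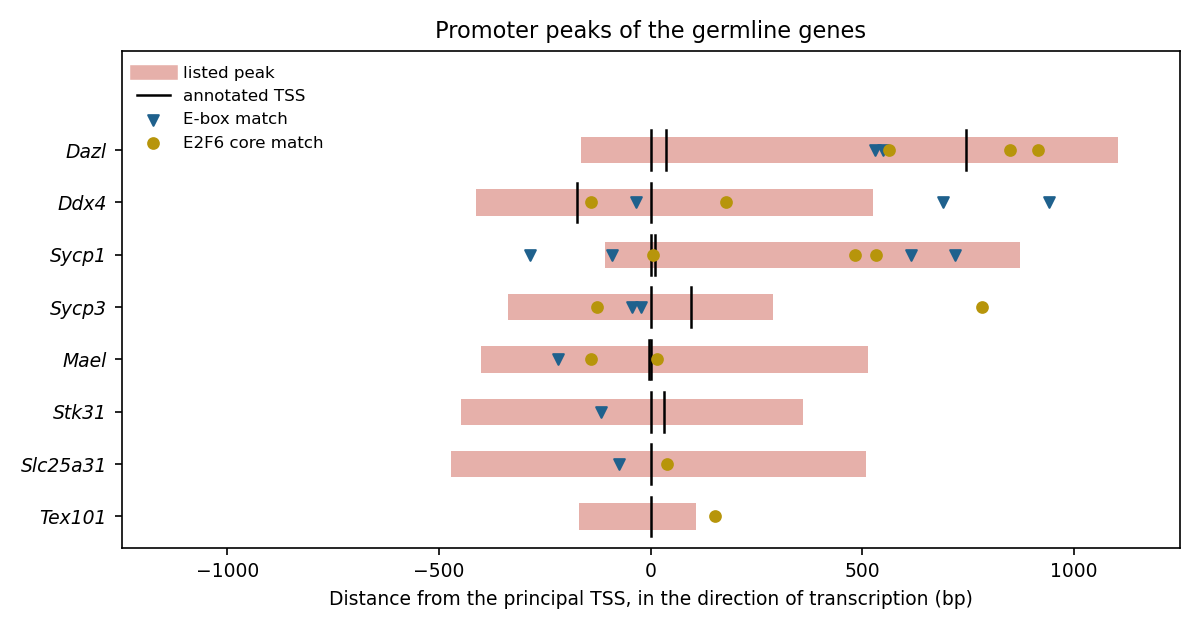
Promoter peaks of the 8 germline genes (bars), drawn in the direction of transcription, with the distance from the principal TSS in bp on the horizontal axis. Black ticks are annotated TSS, triangles are E-box matches (CACGTG) and circles are matches to the E2F6 core (TCCCGC). All 8 bars cross the principal TSS, and they run from 276 bp at Tex101 to 1270 bp at Dazl.

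The first group acts on RNA in germ cells. Dazl encodes an RNA-binding protein that germ cells need to enter meiosis. It lies on the minus strand at chr17:50279395-50293636, and its promoter peak at chr17:50292532-50293801 was the widest of the 8 at 1270 bp. The peak reached from 165 bp upstream to 1104 bp downstream of the principal TSS, so that most of it covered the first part of the gene. Of the 6 annotated TSS of Dazl, 3 lay under the peak, and the other 3, further into the gene, were 4951 to 9209 bp from it. This peak held 112 CpGs, more than at any other member, at a GC content of 66.1%. No other peak was listed in Dazl or within 20000 bp of it.

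Ddx4 encodes the germ cell RNA helicase VASA (MVH), a component of germ granules. The gene lies on the minus strand at chr13:112598333-112652475. Its promoter peak at chr13:112651776-112652713 was 938 bp wide and extended 412 bp upstream and 525 bp downstream of the principal TSS, close to even on both sides. Both annotated TSS of Ddx4 lay under it, and the peak held 79 CpGs. A further peak of 329 bp lay in an intron, 33588 bp from the nearest TSS of the gene and with 1 CpG in it. Outside the gene, a 1095-bp peak covered the promoter of Slc38a9, and a 546-bp peak lay inside the neighbour Il31ra, 1933 bp from its nearest TSS.

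Mael encodes Maelstrom, a protein of the piRNA pathway that silences transposons in the male germline. The gene lies on the minus strand at chr1:166201201-166238747. The promoter peak at chr1:166238231-166239145 was 915 bp wide, with 401 bp upstream and 513 bp downstream of the principal TSS, and it held 61 CpGs. It was the single peak in the gene. The remaining peak within 20000 bp was the 1191-bp promoter peak of Ildr2, 14943 bp from the nearest TSS of Mael.

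Stk31 encodes a Tudor domain protein of germ cells with a kinase-like domain. It lies on the plus strand at chr6:49395604-49469501, and its promoter peak at chr6:49395156-49395965 was 810 bp wide, with 448 bp upstream and 361 bp downstream of the principal TSS. Another annotated TSS, inside the gene, was 21661 bp from the nearest listed peak, which was the intronic one. This intronic peak at chr6:49416142-49416903, 762 bp wide, was 81.4% soft-masked repeat sequence, the highest share among the 27 peaks. Upstream, peaks of 196 bp and 222 bp lay inside Fam221a, 1091 bp and 765 bp from its nearest TSS, on either side of the limit used for a promoter peak.

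The second group builds the synaptonemal complex, the protein zipper between paired chromosomes in meiosis. Sycp1 encodes its transverse filament. The gene lies on the minus strand at chr3:102818499-102936100, and its promoter peak at chr3:102935228-102936207 was 980 bp wide. The peak was lopsided, with 107 bp upstream and 872 bp downstream of the principal TSS. It held 83 CpGs, and its ratio of observed to expected CpG of 0.869 was the highest of the 27 peaks.

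Next to this CpG-rich peak the first part of Sycp1 carried the most AT-rich peaks of the set. A peak of 814 bp at chr3:102934031-102934844 lay 1246 bp from the nearest TSS, followed by peaks of 283 bp at 2784 bp and of 275 bp at 12012 bp. Their GC contents were 29.7%, 29.7% and 26.2%, whereas the promoter peak had 62.6%. Of all listed peaks, 0.479%, 0.467% and 0.105% had a lower GC content than these 3 peaks, in the same order. They held 2, 1 and 0 CpGs.

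Sycp3 encodes a protein of the axial and lateral elements. It lies on the plus strand at chr10:88459569-88473236, wholly inside Chpt1, a gene on the opposite strand. The promoter peak at chr10:88459232-88459859 was 628 bp wide, with 337 bp upstream and 290 bp downstream of the principal TSS. It was nearly centred on the TSS and held 31 CpGs, and its ratio of 0.619 was the lowest of the 8. Since the list has no strand, the accessible DNA counts equally for Sycp3 and for the Chpt1 sequence that it overlaps. The other peaks lay outside Sycp3, at 14790 bp on the upstream side and at 9440 bp and 18307 bp on the downstream side of the gene.

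Slc25a31 encodes the testis ADP/ATP carrier of mitochondria (ANT4), and it lies on the plus strand at chr3:40708855-40726096. It has a single annotated TSS. The promoter peak at chr3:40708382-40709364 was 983 bp wide, with 473 bp upstream and 509 bp downstream of the TSS, and it held 60 CpGs. No other peak was listed in the gene. The 1288-bp promoter peak of Hspa4l lay 18725 bp beyond its 3′ end.

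Tex101 encodes a surface protein of male germ cells and differed from the other 7 genes in where its peak lay and in the CpG ratio at its 5′ end. The gene lies on the minus strand at chr7:24668007-24676675 and has 2 annotated TSS. The peak at chr7:24671944-24672219 spanned the TSS of the principal transcript, with 169 bp upstream and 106 bp downstream. The annotated 5′ end, where the other transcripts begin, lay 4456 bp from the peak. At 276 bp the peak was the narrowest of the 8, and it held 14 CpGs. The CpG ratio was 0.258 around the 5′ end and 0.435 around the principal TSS, both below the limit for CpG-rich, but 0.69 within the peak itself. Of 3794 protein-coding genes with a ratio from 0.2 to 0.4 at the 5′ end, 48.3% had a promoter peak. In the next class, from 0.4 to 0.6, into which the ratio at the principal TSS would fall, the share was 88.7%.

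**Figure D2:**
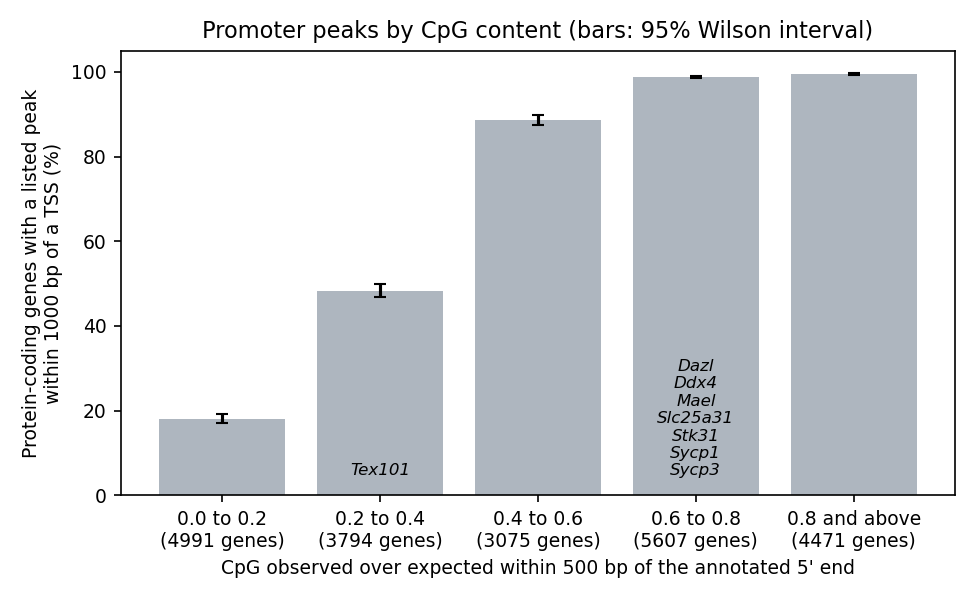
Share of protein-coding genes with a promoter peak (vertical axis, %) in 5 classes of CpG observed over expected around the annotated 5′ end (horizontal axis), with 95% Wilson intervals that cover counting error only and the class of each germline gene written in the bar. The share is 18.1% in the lowest class and 99.5% in the highest, with Tex101 in a class at 48.3% and the other 7 germline genes in a class at 98.8%.

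The promoter peaks of the germline genes were on the narrow side. Their median width was 926.5 bp, against 1087 bp over the peaks at the principal TSS of the 14648 protein-coding genes that had one, with quartiles of 851 bp and 1330 bp. Dazl was wider than 69.6% of those peaks. Each of the other 7 was narrower than the median, and Stk31, Sycp3 and Tex101 were narrower than the first quartile. The share of peaks narrower than the member's own was 37.6% for Slc25a31, 37.3% for Sycp1, 33.0% for Ddx4, 30.7% for Mael, 21.8% for Stk31, 12.7% for Sycp3 and 3.52% for Tex101. Narrow promoter peaks were not particular to these genes. Of 50 other germline genes, described below, 43 had a peak within 1000 bp of any TSS, with a median width of 817 bp. By list the median was 807 bp (chromosome axis and recombination), 922.5 bp (piRNA pathway and germ granule) and 831.5 bp (other germline genes). These medians used peaks at any TSS, not only the principal TSS. A merged peak can be widened by any 1 of the libraries, so width is not a measure of the degree of opening.

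The listed peaks beyond the promoters are described next. The 27 peaks comprised 8 at their own promoters, 4 at promoters of other genes (Slc38a9, Ildr2, Fam221a and Hspa4l) and 15 distal peaks, more than 1000 bp from any annotated TSS. The peak assigned to Fam221a lay near a TSS inside that gene. Of the distal peaks 5 lay in a germline gene, 3 in Sycp1 and 1 each in Ddx4 and Stk31, all in introns. Dazl, Mael, Sycp3, Slc25a31 and Tex101 had no listed peak in the gene other than the one at the promoter. The share of all protein-coding genes of which this holds was not counted. The number of peaks in the gene and its flanks was 1 at Dazl, 2 at Mael and Slc25a31, 4 at Ddx4, Sycp3 and Stk31, and 5 at Sycp1 and Tex101. The median of 4 compares with 5 over all protein-coding genes. Per 100 kb of sequence searched, the median was 3.5 peaks for the germline genes and 7.16 for all protein-coding genes. The lowest density was 1.84 at Dazl and the highest was 10.3 at Tex101, a short gene with 4 distal peaks on its 3′ side. Sycp3, at 7.45, was also above the median of all protein-coding genes.

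**Figure D3:**
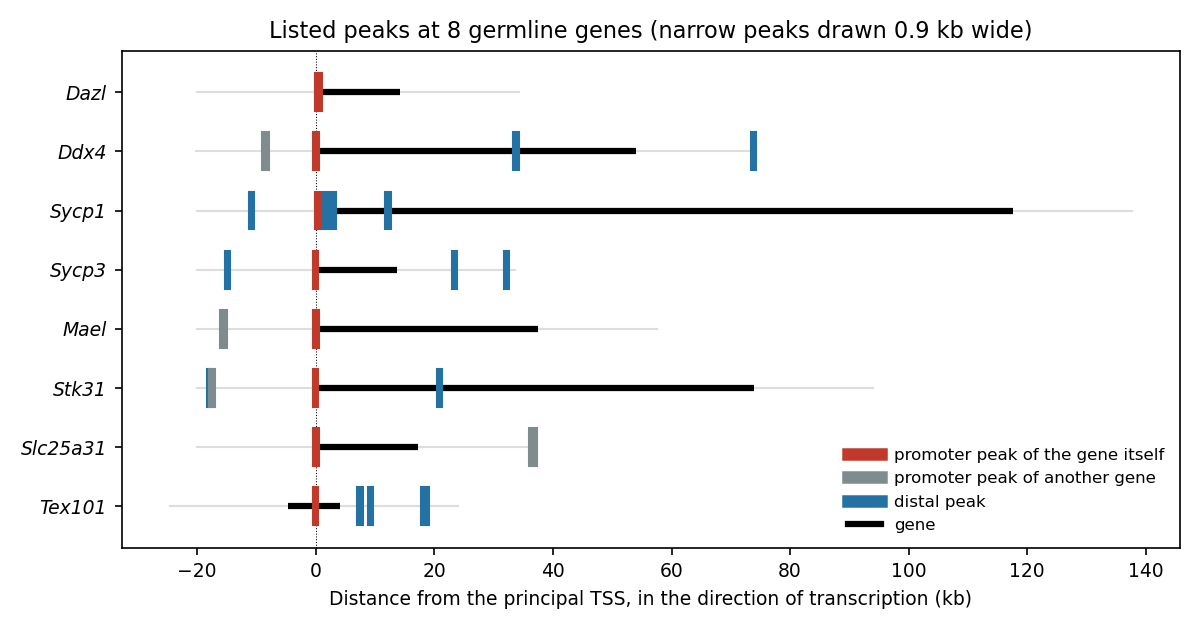
Listed peaks in the 8 germline genes and 20 kb on each side (grey lines), with the distance from the principal TSS in kb on the horizontal axis and genes drawn left to right in the direction of transcription. Black bars are genes, and red, grey and blue boxes are promoter peaks of the gene itself, promoter peaks of other genes and distal peaks, with boxes under 0.9 kb drawn at that width. Every gene has 1 red box at 0, and most blue boxes lie outside the black bars.

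Distal peaks at the germline genes were narrower and poorer in CpG than the promoter peaks. Their median width was 343 bp, against 926.5 bp for the promoter peaks and 415 bp for all listed peaks. The median ratio of observed to expected CpG was 0.166 in the distal peaks, 0.754 in the promoter peaks and 0.259 in all listed peaks. Median GC content was 47.2%, 60.6% and 50.1% in the same order. In CpG ratio the highest distal value was 0.499 (the peak in Il31ra) and the lowest at a germline promoter was 0.619 (Sycp3). The 4 promoter peaks of other genes ran from 0.199 to 0.774 (Hspa4l). The value of 0.199 belongs to the 222-bp peak inside Fam221a, 765 bp from a TSS within that gene. Fam221a also had a 1104-bp peak over a TSS, outside the region searched. Promoter and distal peaks were not compared over all listed peaks, so the gap is not shown to be a trait of these genes. In width the distal peaks and the germline promoter peaks overlapped, since the Tex101 promoter peak was narrower than most distal peaks. At the outer limit of the region searched, the peak just inside was the 546-bp peak 19604 bp from Ddx4 and the peak just outside was a 342-bp peak 21596 bp from Ddx4.

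**Figure D4:**
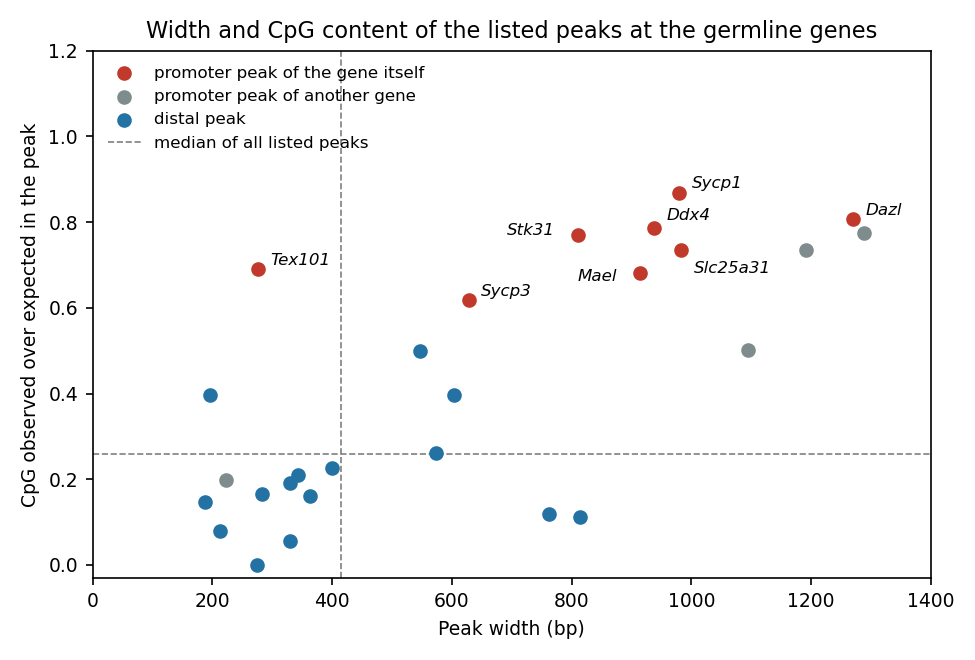
Peak width in bp (horizontal axis) against CpG observed over expected (vertical axis) for the 27 listed peaks at the germline genes, by class, with dashed lines at the medians of all listed peaks (415 bp and 0.259). Promoter peaks of the germline genes (red, named) lie at 0.619 or above and distal peaks (blue) at 0.499 or below. Promoter peaks of other genes (grey) run from 0.199, near a TSS inside Fam221a, to 0.774. Tex101 combines a narrow peak with a high CpG ratio.

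The E-box was counted first. Within 500 bp of the annotated 5′ end, on either strand, 6 of 8 germline promoters held CACGTG, compared with 17.1% of all protein-coding promoters. Those without were Dazl and Tex101. In the RefSeq windows of 300 bases the same 6 genes had a match, of which Ddx4 and Sycp3 are printed above, compared with 7.15% of 32851 windows. Dazl had its sites further into the gene, centred 529 bp and 549 bp downstream of the principal TSS, inside the promoter peak. Counted within the listed peak at the principal TSS, 7 of 8 germline promoters held an E-box, compared with 24.0% of such peaks over all protein-coding genes. This count over peaks was added after the sites in Dazl had been seen. CACGTG itself contains a CpG, and its share among CpG-rich promoters alone was not counted. The E-box is therefore not shown to be particular to these genes.

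The positions of the E-boxes were close to the TSS in most genes. The site nearest to the principal TSS was centred at -23 bp in Sycp3, -35 bp in Ddx4, -75 bp in Slc25a31, -91 bp in Sycp1, -118 bp in Stk31 and -220 bp in Mael, all upstream. Sycp3 had a second site at -44 bp. Sycp1 had the most sites, with others in the peak at 616 bp and 719 bp and one at -284 bp that lay outside the peak. Of the 8 E-boxes within 500 bp of a 5′ end, this last site was the only one that no listed peak covered. Of the 19 peaks at these genes that were not their promoter peaks, 3 held an E-box, namely the promoter peaks of Slc38a9 and Ildr2 and the 196-bp peak in Fam221a. The share of all listed peaks that hold an E-box was not counted, so no contrast with the promoter peaks is drawn.

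The E2F6 core was counted in the same way. Within 500 bp of the 5′ end, TCCCGC on either strand occurred in 5 of 8 germline promoters (Ddx4, Sycp1, Sycp3, Mael and Slc25a31), compared with 47.3% of all protein-coding promoters. In the listed peak at the principal TSS it occurred in 6 of 8, with Dazl added, compared with 70.9% of such peaks, a share close to that of the members. All 5 promoters with the core near the 5′ end also held an E-box, and 10.0% of all protein-coding promoters held both. TCCCGC also contains a CpG, and the share with both among CpG-rich promoters alone was not counted. Holding both is therefore not shown to be particular to these genes. A match to these letters is a description of the DNA, and binding of MGA, MAX or E2F6 was not measured.

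Letters that OCT4, the factor whose endogenous form dox removes, and CTCF are known to bind occurred in few of the 27 peaks, at shares near those of all listed peaks. The OCT octamer ATGCAAAT occurred in 1 peak, the soft-masked intronic peak of Stk31, compared with 2.56% of all listed peaks. The CTCF consensus, with up to 1 mismatch, occurred in 3 peaks, compared with 13.0% of all listed peaks. These were the Dazl promoter peak, the peak 18307 bp from Sycp3 in Chpt1, and the 343-bp peak 14059 bp from Tex101. None of the promoter peaks held the octamer. An exact match misses divergent sites, so nothing follows from its absence for the factor.

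Related germline genes were counted in the same way. Of 50 other germline genes, 43 had a promoter peak, which is 86.0% with a 95% Wilson interval of 73.8% to 93.0% for counting error alone, compared with 70.4% of all protein-coding genes. Among genes of the chromosome axis and recombination, the partners of Sycp1 and Sycp3, the count was 19 of 20. Sycp2, which encodes another axial protein, and Hormad1, which encodes a protein of the meiotic chromosome axis, had peaks of 883 bp and 689 bp over a TSS, and the exception was the cohesin gene Rad21l at 1377 bp. Among genes of the piRNA pathway and germ granule, in which Mael and Ddx4 act, the count was 12 of 15. Piwil1 at 1911 bp, Fkbp6 at 3219 bp and Asz1 at 43024 bp had no listed peak within 1000 bp. Among other germline genes the count was again 12 of 15, without Nanos3 at 1055 bp, Nanos2 at 3130 bp and Dpep3 at 5596 bp.

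Of the 27 related genes with a CpG ratio of 0.6 or more, 25 had a promoter peak, no more than the 99.1% over all CpG-rich protein-coding genes, and the exceptions were Asz1 and Fkbp6. Asz1 stood furthest apart, with a CpG ratio of 0.604, 1 E-box within 500 bp of its 5′ end and its nearest listed peak 43024 bp from a TSS. E-boxes occurred in 20 of the 50 promoters, compared with 17.1% of all protein-coding promoters. By list the counts were 8 of 20 (chromosome axis and recombination), 8 of 15 (piRNA pathway and germ granule) and 4 of 15 (other germline genes). The silencing machinery named below had 5 of 13. Of the 20 related promoters with an E-box 18 had a promoter peak, near the 86.0% over all 50. E-boxes were counted at the 5′ end but peaks at any TSS. At Tdrd9 the peak lay over a TSS further into the gene, with none within 1000 bp of the 5′ end that held its E-boxes. All 6 of the germ cell genes that ES cells also use, such as Dppa3 and Tfap2c, had a promoter peak, compared with 70.4% of all protein-coding genes. So did all 13 genes of the silencing machinery, which include Mga, Max, E2f6, Setdb1 (a histone methyltransferase) and the DNA methyltransferase genes Dnmt1, Dnmt3a and Dnmt3b. Of these 13 genes 10 were CpG-rich, a class in which 99.1% had a promoter peak.

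**Figure D5:**
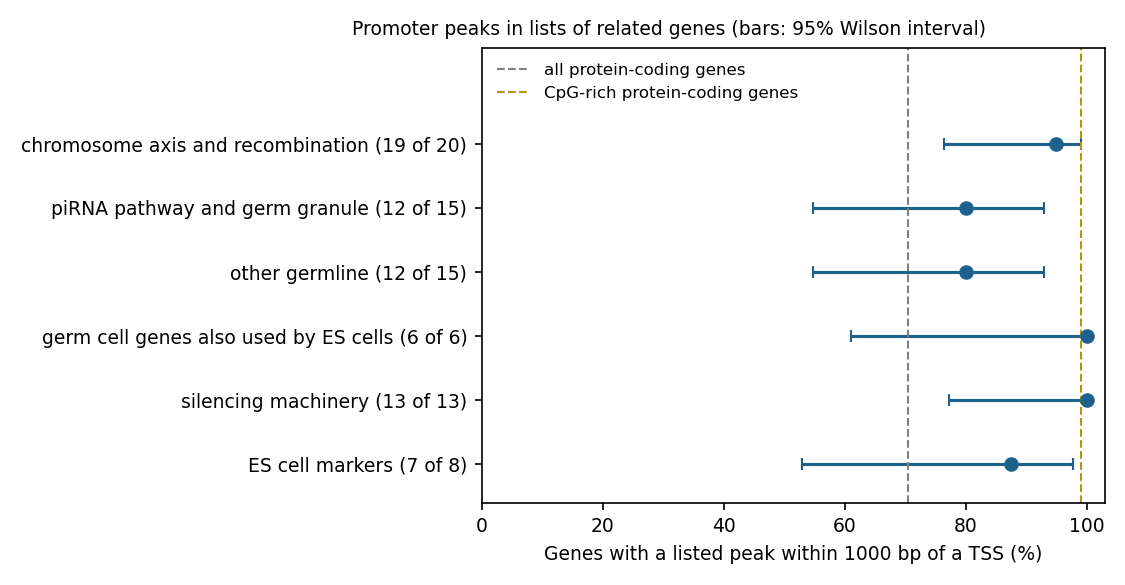
Share of genes with a promoter peak (horizontal axis, %) in lists of related genes, with 95% Wilson intervals that cover counting error only and dashed lines for all protein-coding genes (70.4%) and CpG-rich protein-coding genes (99.1%). The germline lists have 19 of 20, 12 of 15 and 12 of 15 genes with a peak, and the intervals of the 2 lists at 12 of 15 include the share over all protein-coding genes.

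Of the 17 protein-coding genes nearest to the germline genes on either side or overlapping them, 13 had a listed promoter peak, close to the 70.4% of all protein-coding genes. Those without were Il31ra beside Ddx4 (1933 bp), Nr1h5 beside Sycp1 (5978 bp), Mybpc1 beside Sycp3 (4512 bp) and BC049730 beside Tex101 (26942 bp). Chpt1, which contains Sycp3, had a promoter peak of its own, 1033 bp wide.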

How the data were processed

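Per the labels and the study's methods, the authors aligned paired ATAC-seq reads to GRCm38 (mm10) with STAR 2.6.1c, removed duplicates with Picard, called peaks with MACS2 2.1.1.20160309 and merged the peaks of all dox libraries with BEDTools. The deposited list gives a position for each merged peak and no score. The methods name the removal of peaks wider than 5000 bp, but 7 remain in the list. They also name the removal of peaks that overlap input peaks or blacklisted regions, which could not be checked here. It was not established that the list holds every merged peak.

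Peak starts were converted to count from 1. Distances ran from a peak's nearest base to TSS of GENCODE M21 transcripts on chromosomes with listed peaks. A peak within 1000 bp of a TSS was called a promoter peak. CpG ratios and motifs (exact, both strands) used 500 bp on each side of the annotated 5′ end. Soft-masked bases came from the reference. RefSeq windows were found for all 8 genes and were identical to the genome.

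The 8 genes, every peak within 20000 bp of them, their neighbours and the gene lists named here were chosen with earlier results of these data known, and the lists' exceptions are named. No test was run, since no value per library was at hand. Functions were tested on simulated data. Python 3.11.15, numpy 2.4.6, pandas 2.3.3, pysam 0.24.0 and matplotlib 3.10.9 were used.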

Additional observations from a re-analysis of the deposited data

How the results depend on the processing

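Of 50 alternative values, 47 stayed within 1.5 times the reported count or, for the median width, between 329 and 915 bp, its 95% binomial order-statistic interval. Counts of promoter peaks over a fixed set of genes could leave that range only by falling. Even a peak at every gene would have stayed within it, so looser settings were bound to stay. Promoter peaks were found at 7 of 8 germline genes with the annotated 5′ end as the TSS or with peaks of at least 300 bp, both times without Tex101, and at 8 in the other settings. The 3 values that moved did so by construction. With 10000 bp on each side of the genes 17 peaks were counted, with 50000 bp 57, and a CpG ratio of at least 0.75 left 6008 genes with a peak of 6036. Of the germline genes only Slc25a31, at 0.752, reached that stricter limit, with Ddx4 next at 0.742, so the count of CpG-rich members depends on the limit. The 8 values with the principal TSS or the promoter peak as the window were added after seeing the data. No paired analysis was possible because merged peaks carry no value per replicate, and for the same reason no replicate could be left out.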
